A study of Mus musculus with 22 samples.

Results

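The genes described are 9 members of the TGF-beta and activin system of the mouse: the ligands Tgfb1, Tgfb2 and Tgfb3, the activin subunits Inhba and Inhbb, the receptors Tgfbr1, Tgfbr2 and Tgfbr3, and Tgfbi, a matrix protein named for its induction by TGF-beta. They were taken by symbol, without a cut on their values, from the 25471 genes listed in the tables, but with earlier results of these data known. All 9 passed the filter on low counts that kept 18793 genes for testing. Their level was followed in each of 22 libraries, in the loaded against the non-loaded limb of each mouse, and between genotypes.

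TGF-betas are made as latent complexes, are stored in bone matrix in large amounts, and are set free when the matrix is remodelled. Active ligand binds the type II receptor TGFBR2, which recruits and phosphorylates the type I receptor TGFBR1, and this kinase then activates SMAD2 and SMAD3. TGFBR3, also called betaglycan, presents ligand to the other receptors and binds inhibin, while dimers of the INHBA or INHBB subunits form activins, which use other receptors but the same SMADs. In bone these signals act on cells that form bone, on cells that resorb it and on osteocytes.

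RNA was sequenced from the middle of the ulna, a bone of the forelimb, in 11 mice; the right ulna of each had received mechanical load and the left served as its own non-loaded control. The groups were loaded and non-loaded ulnae of 4 mice with a conditional knockout of the lipopolysaccharide receptor Tlr4 (CKO; mice 688, 691, 693 and 698), and loaded and non-loaded ulnae of 7 wildtype mice (WT; mice 685, 686, 687, 690, 692, 694 and 699). The title of the series refers to the receptor in bone-forming osteoblasts, but the labels give neither the Cre driver nor the alleles, age, strain, loading regime or time of harvest, and a conditional deletion leaves the gene in other cells of the bone. Libraries held 21999891 to 42833729 estimated counts. Levels below are CPM, counts scaled to a common library size, and fold changes are on the log2 scale with their standard error.

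Several libraries stood apart. Over the whole gene, Tlr4 had 29.2 ± 3.16 CPM in CKO loaded and 30.1 ± 3.43 CPM in CKO non-loaded ulnae (SD, n = 4 each), against 33.4 ± 4.82 CPM in WT loaded and 32.5 ± 4.89 CPM in WT non-loaded ulnae (n = 7 each), and such counts do not check a deletion restricted to some cells. Ltbp2, which otherwise separated the genotypes, went against 2 labels: the library labelled CKO loaded of mouse 688 had 38.4 CPM, where the other CKO libraries had 205 to 344 CPM, and the library labelled WT loaded of mouse 686 had 380 CPM, where the other WT libraries had 26.5 to 73.5 CPM. All 12 skeletal muscle markers were present in every library and took 2.77% of the counts in the CKO non-loaded ulna of mouse 691, 4.39% in the WT non-loaded ulna of mouse 699 and 5.43% in the WT loaded ulna of mouse 694, against 8.71% to 15.3% in the other 19 libraries. The summed level of 8 neutrophil markers spanned 2891 to 4742 CPM in CKO loaded, 3587 to 11311 CPM in CKO non-loaded, 2575 to 8616 CPM in WT loaded and 2668 to 17595 CPM in WT non-loaded ulnae, and the 2 highest sums belonged to the non-loaded ulnae of mice 691 and 699. Bone was present throughout: the summed level of 6 osteocyte markers lay between 534 and 1495 CPM. In such bulk tissue, fewer cells of a type and less RNA per cell cannot be told apart. Results that rest on mice 691 and 699 or on mice 686 and 688 are given with and without them. Mouse 694, whose low-muscle ulna was the loaded one, stayed in the fits without mice 691 and 699.

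Per kilobase of exon, the set covered about an order of magnitude. Tgfbi stood highest at 25.9 ± 7.54 CPM per kb (SD over 22 libraries), followed by Tgfb1 at 24.3 ± 6.60 and Tgfbr3 at 21.8 ± 3.67 CPM per kb; these neighbours differed by less than their spread. Tgfb3 averaged 15.1 ± 3.66 and Tgfbr2 14.5 ± 1.34 CPM per kb, again within the spread of each other. Tgfbr1 at 10.9 ± 1.12 and Tgfb2 at 9.46 ± 2.38 CPM per kb came next, and the activin subunits were lowest, with 3.46 ± 1.26 CPM per kb for Inhba and 2.69 ± 0.77 CPM per kb for Inhbb. Tgfb1 was therefore the most abundant of the ligand transcripts, and the levels of Tgfbi and Inhbb exceeded those of 93.5% and 49.3% of the genes tested. The lowest count of a member in any library was 132 (Inhbb), so counting error was small beside the spread between mice.

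**Figure D1:**
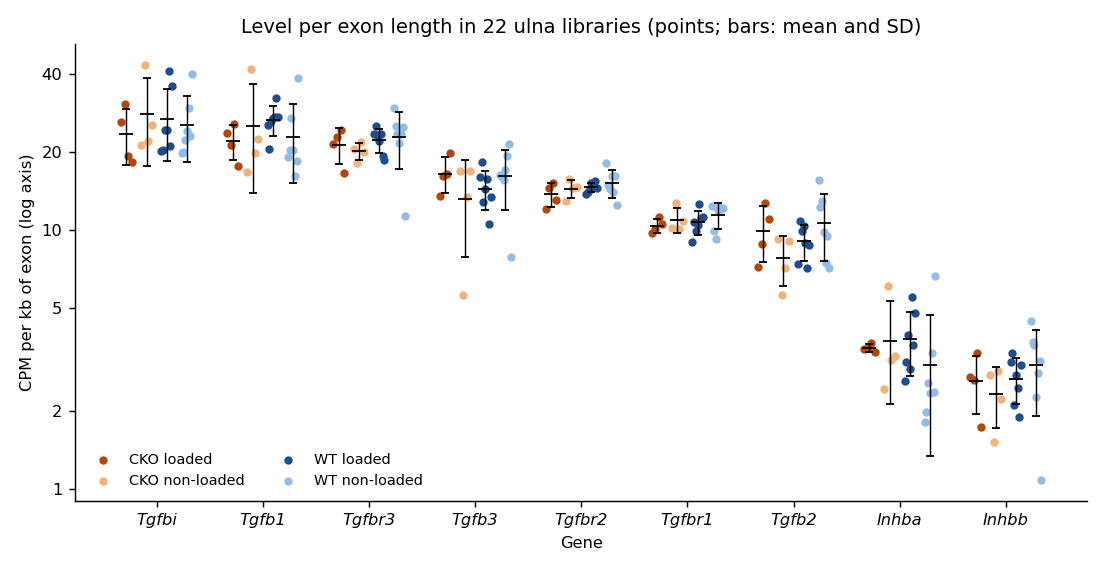
Level of the 9 genes in CPM per kb of exon (log axis), ordered by their mean; each point is 1 library, and black bars give the mean and SD of CKO loaded, CKO non-loaded (n = 4 each), WT loaded and WT non-loaded ulnae (n = 7 each). Tgfbr1 and Tgfbr2 have short bars in every group, while single non-loaded ulnae lie far from their group for Tgfb1, Tgfb3, Inhba, Inhbb, Tgfbr3 and Tgfbi.

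The members also differed in how steady they were. The receptors Tgfbr1 and Tgfbr2 varied least, with a standard deviation within groups of 0.15 and 0.13 on the log2 CPM scale, lower than that of all but 12.5% and 7.97% of tested genes; their highest library exceeded their lowest by only 1.41-fold and 1.51-fold. The median gene had a standard deviation of 0.35. Inhba and Inhbb varied most, with 0.49 and 0.48, and spanned 3.66-fold and 4.10-fold, and Tgfb3 spanned 3.81-fold.

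The ligand genes differ in the sequence before their start. The 250 bases upstream of 4 ligand genes are shown (RefSeq, GRCm38.p6, written on the gene's strand) because the values of these ligands carry the comparisons below; capitals mark matches to GGGCGG (the GC box), CAGACA (a letter sequence of the SMAD-binding CAGA box) and TATAAA (the TATA box) on either strand, and no match overlaps another. The windows are chr13:16011601-16011850 on the plus strand for Inhba, chr1:119422249-119422498 on the minus strand for Inhbb, chr7:25686752-25687001 on the plus strand for Tgfb1 and chr1:186705990-186706239 on the minus strand for Tgfb2.
Inhba: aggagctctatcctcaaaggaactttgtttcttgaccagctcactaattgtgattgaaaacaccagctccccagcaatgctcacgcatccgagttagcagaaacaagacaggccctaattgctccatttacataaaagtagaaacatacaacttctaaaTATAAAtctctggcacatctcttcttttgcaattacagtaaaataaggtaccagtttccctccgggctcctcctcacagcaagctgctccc
Inhbb: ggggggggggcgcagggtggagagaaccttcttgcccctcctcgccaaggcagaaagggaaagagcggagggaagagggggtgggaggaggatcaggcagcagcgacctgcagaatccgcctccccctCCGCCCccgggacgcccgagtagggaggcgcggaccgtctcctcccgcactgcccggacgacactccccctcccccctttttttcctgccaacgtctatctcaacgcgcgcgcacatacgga
Tgfb1: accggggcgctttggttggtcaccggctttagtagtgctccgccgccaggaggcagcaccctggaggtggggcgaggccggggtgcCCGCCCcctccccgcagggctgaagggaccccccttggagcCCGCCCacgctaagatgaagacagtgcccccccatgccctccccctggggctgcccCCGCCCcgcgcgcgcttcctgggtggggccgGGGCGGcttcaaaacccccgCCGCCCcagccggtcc
Tgfb2: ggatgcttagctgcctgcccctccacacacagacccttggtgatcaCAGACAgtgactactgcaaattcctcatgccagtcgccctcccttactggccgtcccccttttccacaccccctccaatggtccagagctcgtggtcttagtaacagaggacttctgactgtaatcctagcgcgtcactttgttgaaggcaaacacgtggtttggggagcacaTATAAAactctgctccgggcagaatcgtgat
Tgfb1 has 5 matches to the GC box, beginning at positions -164, -123, -67, -36 and -16 from the start, and Inhbb has 1 at position -122. TATAAA begins at position -31 in Tgfb2 and at -91 in Inhba, and CAGACA begins at -204 in Tgfb2. These letters occur in 32.7% (GC box), 12.4% (TATA box) and 17.1% (CAGACA) of 32851 promoter windows of the same length. The AP-1 site TGANTCA and the cAMP response element TGACGTCA, present in 6.75% and 1.55% of the windows, were found in none of the windows of the 7 members that have an entry. Matches are descriptions of letters only.

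No member passed the test in any comparison. The edgeR model had a mean for each of 4 groups and no mouse term, so it did not use the pairing of limbs. With the mouse as a block, 0 members were called in each loading comparison. With edgeR, 0 of 9 members were called at an adjusted p under 0.05 for loading in CKO mice (0.016% of all genes tested were called), 0 of 9 for loading in WT mice (0.00532%) and 0 of 9 for the difference between these responses (0%). Likewise 0 of 9 were called for the mean loading effect of both genotypes (0.0905%), 0 of 9 for CKO against WT in non-loaded ulnae (0%) and 0 of 9 for CKO against WT in loaded ulnae (0%). At an unadjusted p under 0.05 there were 0 of 9 members for loading in CKO (3.6% of all genes) and in WT mice (2.34%), 0 of 9 for the difference between responses (2.6%) and 0 of 9 for the mean loading effect (3.17%). For genotype there was 1 of 9, Tgfb2, in non-loaded ulnae (3.04%) and 0 of 9 in loaded ulnae (6.81%). Without mice 691 and 699 there were 4 of 9 for loading in WT mice (Inhba, Inhbb, Tgfb1 and Tgfb3), beside 11.7% of all genes. In that fit there were 0 of 9 for loading in CKO mice (1.63%) and 2 of 9, Inhba and Tgfb1, for the mean loading effect (3.99%). For genotype in non-loaded ulnae it was 1 of 9, Tgfbr3 (3.55%), and 0 members were called in each comparison. DESeq2 and limma voom (mouse as random effect) also called 0 members in each comparison. The data were too few to exclude moderate changes of the ligands: the 95% interval of the loading response of Inhba in CKO mice ran between 0.572-fold and 1.54-fold, whereas for Tgfbr2 in WT mice it ran between 0.855-fold and 1.08-fold.

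**Figure D2:**
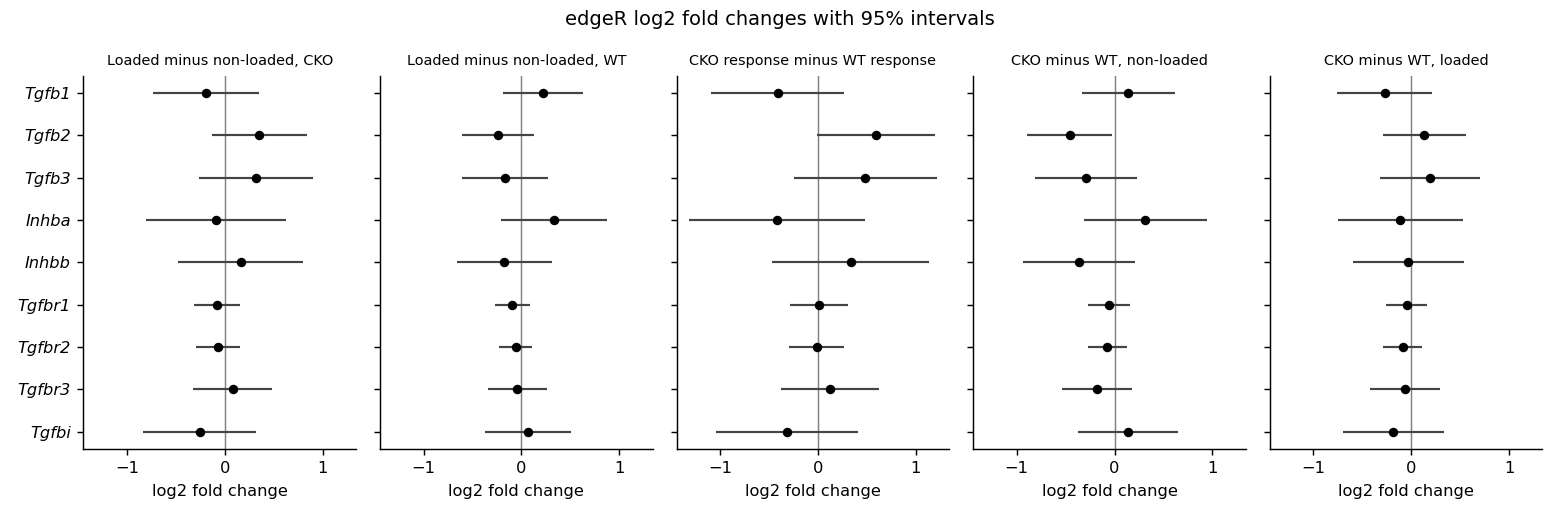
Log2 fold changes of the 9 genes by edgeR (points) with 95% intervals (lines) in 5 comparisons, the tested side minus the other as each panel's title states. Every interval includes 0 except that of Tgfb2 in non-loaded ulnae, and the intervals of Tgfbr1 and Tgfbr2 are the shortest.

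Inhba (ENSMUSG00000041324, chr13:16011851-16031621, plus strand, GRCm38) encodes the subunit of activin A. In CKO mice 688, 691, 693 and 698 it had 22.2, 22.4, 23.3 and 21.5 CPM in loaded ulnae, against 15.4, 38.7, 20.1 and 20.8 CPM in non-loaded ulnae. In WT mice the lowest, median and highest values were 16.6, 22.9 and 35.2 CPM in loaded ulnae, against 11.6, 15.1 and 42.3 CPM in non-loaded ulnae. The groups overlapped, but within mice the loaded ulna was above the non-loaded one in 3 of 4 CKO and in 6 of 7 WT mice. The exceptions were mice 691 and 699, whose non-loaded ulnae held the least muscle RNA and the highest neutrophil sums. Of all genes tested, 2.88% were higher in the loaded ulna of at least 9 of 11 mice.

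The fitted response of Inhba to loading was -0.09 ± 0.34 in CKO mice (edgeR adjusted p = 0.932) and 0.33 ± 0.26 in WT mice (edgeR adjusted p = 1.0), and the difference between them was -0.42 ± 0.43 (edgeR adjusted p = 0.704). Without mice 691 and 699 it was 0.27 ± 0.23 in CKO mice (edgeR adjusted p = 1.0) and 0.56 ± 0.17 in WT mice (edgeR adjusted p = 0.365). In a fit blocked by mouse and without these 2 mice, chosen after seeing the data, the WT response was 0.54 ± 0.08 (edgeR adjusted p = 0.181). The 9 remaining mice all had the higher value in the loaded ulna, by 0.05 to 0.72 on the log2 CPM scale. The same held for 0.49% of the genes tested. For Inhba this count was fixed in advance, because the 2 mice left out were its only exceptions. The mean loading effect of Inhba over both genotypes was 0.12 ± 0.21, and it was 0.02 ± 0.24 without mice 686 and 688, whose labels Ltbp2 went against. Mouse 688 had the largest Inhba difference among the CKO mice, 0.52. CKO exceeded WT by 0.31 ± 0.30 in non-loaded ulnae and differed by -0.11 ± 0.30 in loaded ulnae, with edgeR adjusted p of 0.976 and 0.888.

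**Figure D3:**
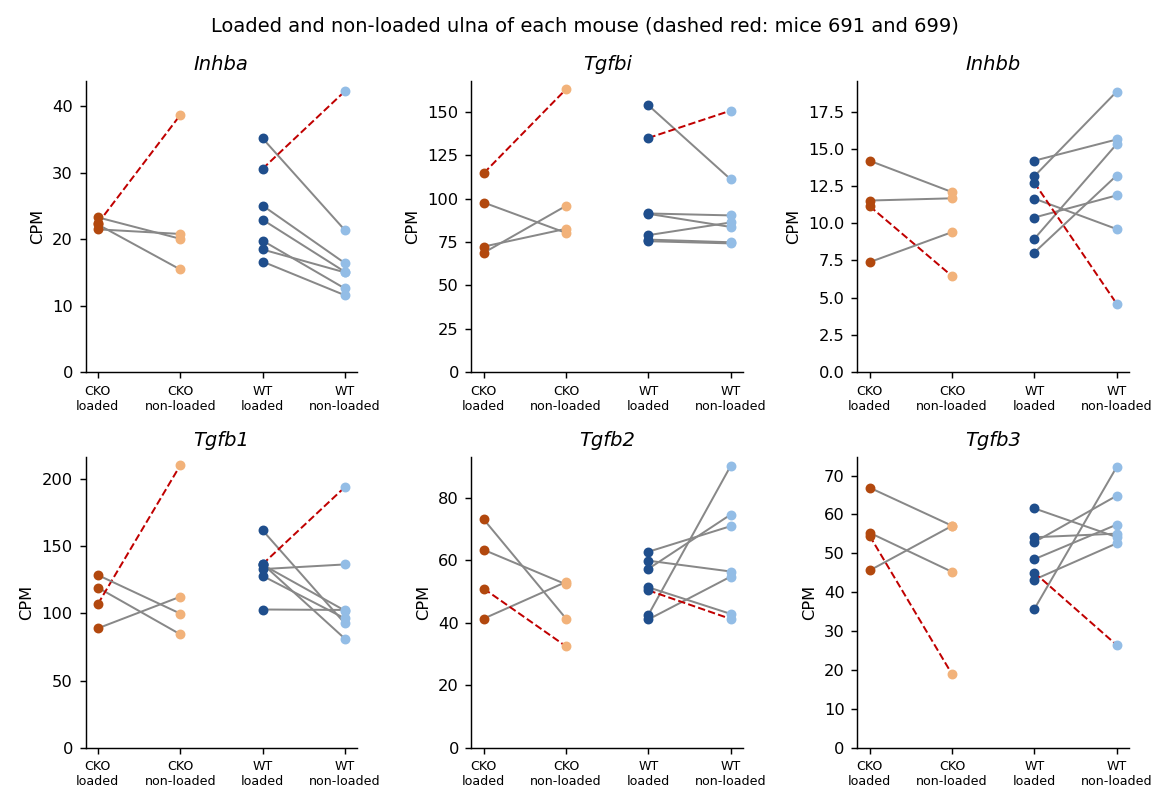
CPM of 6 genes in the loaded and the non-loaded ulna of each mouse, CKO mice on the left of each panel and WT mice on the right; lines join the limbs of a mouse, and dashed red lines mark mice 691 and 699. For Inhba all solid lines run down towards the non-loaded ulna, while both dashed lines run up; for Tgfb3 and Inhbb the dashed lines run down.

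Inhbb (ENSMUSG00000037035, chr1:119415465-119422248, minus strand), the subunit of activin B, did not follow Inhba. It ranged over 7.39 to 14.2 CPM in CKO loaded and 6.45 to 12.1 CPM in CKO non-loaded ulnae, and over 8.03 to 14.2 CPM in WT loaded and 4.59 to 18.9 CPM in WT non-loaded ulnae, so that all groups overlapped. The lowest values, 6.45 and 4.59 CPM, were those of the non-loaded ulnae of mice 691 and 699. The loaded ulna was higher in 2 of 4 CKO and 2 of 7 WT mice. The response was 0.16 ± 0.30 in CKO mice (edgeR adjusted p = 0.856) and -0.17 ± 0.23 in WT mice (edgeR adjusted p = 1.0); without mice 691 and 699 the WT value was -0.38 ± 0.18 (edgeR adjusted p = 0.419).

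Tgfb1 (ENSMUSG00000002603, chr7:25687002-25705077, plus strand) encodes the main TGF-beta of bone matrix. It had 119, 107, 128 and 88.9 CPM in the loaded and 84.4, 210.1, 99.8 and 112 CPM in the non-loaded ulnae of CKO mice 688, 691, 693 and 698. Lowest, median and highest values in WT mice were 103, 136 and 162 CPM in loaded and 81.2, 102 and 194 CPM in non-loaded ulnae. The non-loaded ulnae of mice 691 and 699 were the highest of all 22 libraries, and the loaded WT ulna of mouse 694 came next. Loaded exceeded non-loaded in 2 of 4 CKO and 5 of 7 WT mice. The largest difference, 0.81 on the log2 CPM scale, was that of WT mouse 694, whose loaded ulna was low in muscle markers. This mouse stayed in the fits without mice 691 and 699. The response was -0.19 ± 0.26 in CKO mice (edgeR adjusted p = 0.793) and 0.22 ± 0.19 in WT mice (edgeR adjusted p = 1.0), and the difference between the responses was -0.41 ± 0.32 (edgeR adjusted p = 0.697). Without mice 691 and 699 the Tgfb1 response was 0.19 ± 0.18 in CKO mice (edgeR adjusted p = 1.0) and was 0.36 ± 0.13 in WT mice (edgeR adjusted p = 0.397). With a muscle and a marrow score as covariates it was 0.27 ± 0.09 in CKO and 0.19 ± 0.06 in WT mice, with edgeR adjusted p of 1.0 and 0.798.

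Tgfb2 (ENSMUSG00000039239, chr1:186622792-186705989, minus strand), a ligand that depends on betaglycan for strong receptor binding, gave the lowest p-value between genotypes. In CKO mice 688, 691, 693 and 698 it had 41.4, 51.0, 73.1 and 63.4 CPM in loaded and 53.1, 32.5, 41.3 and 52.3 CPM in non-loaded ulnae. In WT mice its lowest, median and highest values were 41.1, 51.4 and 62.8 CPM in loaded and 41.2, 56.4 and 90.3 CPM in non-loaded ulnae. In non-loaded ulnae every CKO value was below the WT median, but the groups overlapped. The genotype difference there was -0.46 ± 0.21 (unadjusted p = 0.0368, edgeR adjusted p = 0.976), and in loaded ulnae it was 0.13 ± 0.20 (edgeR adjusted p = 0.789). In non-loaded ulnae the unadjusted p of Tgfb2 stayed under 0.05 with DESeq2 and without mice 686 and 688. It was not under 0.05 without mice 691 and 699 or with the muscle and marrow scores as covariates, and was 0.0509 by limma voom. The Tgfb2 response to loading was 0.35 ± 0.23 in CKO mice (edgeR adjusted p = 0.739) and -0.24 ± 0.17 in WT mice (edgeR adjusted p = 1.0). The difference between them was 0.59 ± 0.29 (unadjusted p = 0.0518, edgeR adjusted p = 0.697), and 0.84 ± 0.33 without mice 686 and 688 (edgeR adjusted p = 0.367). Without these mice the CKO response of Tgfb2 was 0.58 ± 0.27 (edgeR adjusted p = 0.368). Without mice 691 and 699 the unadjusted edgeR p of Tgfb2 was not under 0.05 for the CKO response or for the difference between responses. Tgfb2 shares 124 exon bases with the antisense gene Gm29491, and the strand setting of the counting is not given in the sources used here.

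Tgfb3 (ENSMUSG00000021253, chr12:86056745-86079041, minus strand), a ligand also expressed in muscle and tendon, ran opposite to Tgfb1 across libraries. It shares 163 and 257 exon bases with Gm37804 and Gm48008 on the opposite strand, which are not among the genes listed. It had 45.6, 54.5, 55.3 and 66.9 CPM in the loaded and 57.1, 18.9, 45.2 and 57.1 CPM in the non-loaded ulnae of CKO mice 688, 691, 693 and 698. Lowest, median and highest values in WT mice were 35.7, 48.5 and 61.6 CPM in loaded and 26.4, 55.1 and 72.2 CPM in non-loaded ulnae. The non-loaded ulnae of mice 691 and 699 were the lowest of the 22 libraries, followed by the loaded ulna of mouse 694. The response was 0.32 ± 0.28 in CKO mice (edgeR adjusted p = 0.739) and -0.17 ± 0.21 in WT mice (edgeR adjusted p = 1.0). With the muscle and marrow scores as covariates the CKO value was -0.04 ± 0.11, and without mice 691 and 699 it was 0.10 ± 0.19 (for both, edgeR adjusted p = 1.0). Without these 2 mice the unadjusted edgeR p of the WT response of Tgfb3 was under 0.05, but it was not called. Mouse 694, with the lowest WT limb difference of Tgfb3, -1.02 on the log2 CPM scale, stayed in that fit.

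After group means were subtracted, log2 CPM of Tgfb1 correlated with the muscle score, the mean log2 CPM of the 12 muscle markers, at r = -0.92 over 22 libraries and at -0.81 over the 18 libraries of the other mice when 691 and 699 were left out. Its r with the marrow score, built from erythroid, neutrophil and B cell markers, was 0.91, and 0.85 without these mice. For Tgfb3 the values were 0.93 and 0.80 with the muscle score, and -0.88 and -0.84 with the marrow score. The 2 scores were themselves correlated at -0.82, all values come from the same libraries and scaling, and 2 limbs come from each mouse, so these are descriptions. Tgfb2, Inhba, Inhbb, Tgfbr3 and Tgfbi had muscle correlations between -0.61 and 0.47 over 22 libraries, and between -0.15 and -0.01 without mice 691 and 699. The part of tissue composition in the limb and genotype differences was not tested beyond the fits with both scores.

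**Figure D4:**
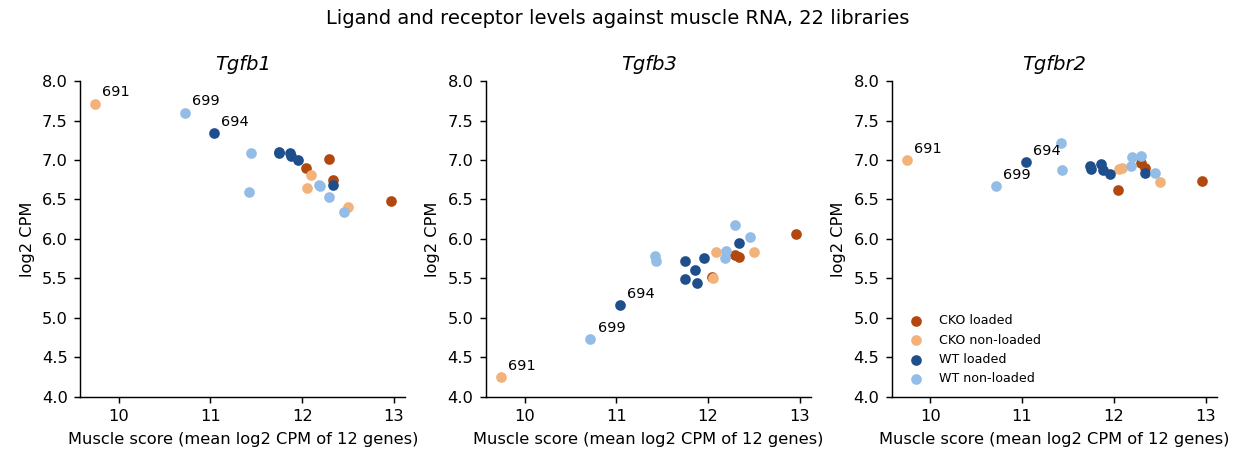
Log2 CPM of Tgfb1, Tgfb3 and Tgfbr2 in each of 22 libraries against the muscle score, the mean log2 CPM of 12 skeletal muscle markers; colours give the group, and the numbered points are the non-loaded ulnae of mice 691 and 699 and the loaded ulna of mouse 694. Tgfb1 falls and Tgfb3 climbs with the score (r of -0.92 and 0.93), while Tgfbr2 stays level (r of -0.14).

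The signalling receptors had fold changes near 0 with the narrowest intervals of the set. Tgfbr1 (ENSMUSG00000007613, chr4:47353222-47414931, plus strand), the type I receptor kinase, ranged over 63.2 to 73.1 CPM in CKO loaded and 65.8 to 82.7 CPM in CKO non-loaded ulnae, and over 58.6 to 81.9 CPM in WT loaded and 60.1 to 80.9 CPM in WT non-loaded ulnae. Tgfbr2 (ENSMUSG00000032440, chr9:116084293-116175360, minus strand), the type II receptor that binds the ligand, ranged over 98.0 to 124 CPM in CKO loaded and 105 to 128 CPM in CKO non-loaded ulnae, and over 113 to 126 CPM in WT loaded and 102 to 148 CPM in WT non-loaded ulnae. All groups overlapped for both genes. The response of Tgfbr1 was -0.08 ± 0.11 in CKO and -0.09 ± 0.09 in WT mice, and that of Tgfbr2 was -0.07 ± 0.11 in CKO and -0.06 ± 0.08 in WT mice, with edgeR adjusted p between 0.81 and 1.0. The differences between genotypes lay between -0.09 and -0.05, none past the threshold by edgeR, and the difference between the responses was 0.01 ± 0.14 for Tgfbr1 and -0.01 ± 0.13 for Tgfbr2. The 95% interval of the Tgfbr2 difference ran between -0.29 and 0.27 on the log2 scale.

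Tgfbr3 (ENSMUSG00000029287, chr5:107106570-107289629, minus strand), the co-receptor betaglycan, was the most abundant of the 3 receptors per length. It ranged over 108 to 158 CPM in CKO loaded and 118 to 142 CPM in CKO non-loaded ulnae, and over 122 to 164 CPM in WT loaded and 74.1 to 193 CPM in WT non-loaded ulnae, with overlap throughout. The lowest value was that of the non-loaded ulna of mouse 699. Its response was 0.08 ± 0.19 in CKO and -0.04 ± 0.14 in WT mice, with edgeR adjusted p of 0.884 and 1.0. In non-loaded ulnae CKO minus WT was -0.18 ± 0.17 (edgeR adjusted p = 0.976), and -0.26 ± 0.11 without mice 691 and 699 (edgeR adjusted p = 0.983). Tgfbr3 shares 297 exon bases with Gm43422 on the same strand, so reads there could have been assigned to either.

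Tgfbi (ENSMUSG00000035493, chr13:56609523-56639562, plus strand) encodes a secreted matrix protein that binds collagen and integrins. It ranged over 68.8 to 115 CPM in CKO loaded and 80.3 to 163 CPM in CKO non-loaded ulnae, and over 75.5 to 154 CPM in WT loaded and 74.2 to 151 CPM in WT non-loaded ulnae, with overlap between all groups. The loaded ulna was higher in 1 of 4 CKO and 5 of 7 WT mice. The response was -0.26 ± 0.28 in CKO mice (edgeR adjusted p = 0.754) and 0.07 ± 0.21 in WT mice (edgeR adjusted p = 1.0). The highest value, 163 CPM, and the lowest limb difference, -0.51, were those of CKO mouse 691. Without mice 691 and 699 the Tgfbi response was -0.10 ± 0.22 in CKO and 0.09 ± 0.15 in WT mice, and with the muscle and marrow scores as covariates it was 0.07 ± 0.25 and 0.07 ± 0.18, none past the threshold by edgeR. CKO minus WT was 0.14 ± 0.24 in non-loaded and -0.18 ± 0.25 in loaded ulnae, with edgeR adjusted p of 0.985 and 0.763. In non-loaded ulnae it was -0.01 ± 0.19 without mice 691 and 699 and 0.02 ± 0.21 with the covariates.

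Some members varied together within groups. Inhba and Tgfbi correlated at r = 0.86 over 22 libraries and 0.80 over 18 without mice 691 and 699, and Inhbb and Tgfbr3 at 0.87 with and without these mice. Tgfb1 and Tgfb3 ran opposite, at -0.91 and -0.69. By contrast the r of -0.74 between the activin subunits was -0.42, and that of 0.70 between Inhba and Tgfb1 was 0.15, when mice 691 and 699 were left out.

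The genes most like each member over the 22 libraries, by r of log2 CPM after subtraction of group means, were Ptbp1, Asap1 and Ilk for Tgfb1 (0.97, 0.97 and 0.96), Egr3, Ngef and Sema5a for Tgfb2 (each 0.92) and Lgr4, Zfp651 and Ptpn21 for Tgfb3 (each 0.97). Agtrap, Dstn and Zmpste24 were most like Inhba (each 0.97), and Kirrel, Scarf2 and Arhgef19 most like Inhbb (0.92, 0.91 and 0.91). For Tgfbr1 they were Hif1a, Zcchc10 and Psma2 (0.85, 0.83 and 0.82), for Tgfbr2 Aco1, Tnfrsf11a and Kitl (0.87, 0.82 and 0.82), for Tgfbr3 Snx33, Ctnnd1 and Lvrn (0.93, 0.92 and 0.92), and for Tgfbi Ass1, Mefv and Elovl5 (0.95, 0.95 and 0.94). Each was picked as the highest among the genes tested, and the libraries share tissue mixture and scaling.

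The rest of the pathway was read from 6 lists, of which 70 genes were tested. These lists were chosen with earlier results of these data known, so their counts are descriptions. By edgeR 0 of 70 were called in each of the 6 comparisons; at an unadjusted p under 0.05 there were 3 of 70 (4.29%) for loading in CKO mice, beside 3.6% of all genes, 2 (2.86%) for loading in WT mice, beside 2.34%, and 1 (1.43%) for the difference between responses, beside 2.6%. There were 4 (5.71%) for the mean loading effect, beside 3.17%, 4 (5.71%) for genotype in non-loaded ulnae, beside 3.04%, and 2 (2.86%) for genotype in loaded ulnae, beside 6.81%. DESeq2 and limma voom (mouse as random effect) each called 1 of 70, in the mean loading effect, where they called 0.176% and 0.101% of all genes. For the loading counts of each list below, 48.3% of all genes tested were above 0 in CKO and 47.7% in WT mice. With the muscle and marrow scores as covariates these shares were 49.7% and 52.8%. Among 5 other ligands, 2 were above 0 for loading in CKO and 0 in WT mice, with medians of -0.12 and -0.16. With the covariates the counts were 0 and 1. The lowest p-values were those of Gdf15, a stress-induced family member, for loading in CKO mice (-0.88 ± 0.56) and for the mean loading effect (-0.52 ± 0.35), of Inha, the inhibin alpha subunit, for loading in WT mice (-0.51 ± 0.27), of Mstn, the myostatin of muscle, for the difference between responses (0.76 ± 0.64), and of Lefty1 for genotype in non-loaded (-0.27 ± 0.25) and loaded ulnae (-0.59 ± 0.25).

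Of 16 genes that hold latent TGF-beta or activate it, 9 were above 0 for loading in CKO and 8 in WT mice, with medians of 0.12 and -0.004. With the muscle and marrow scores as covariates the count was 10 in both. Between genotypes, 10 of 16 were below 0 in CKO against WT non-loaded ulnae, 14 without mice 691 and 699 and 13 with the covariates. In loaded ulnae these counts were 11, 8 and 14. Without mice 686 and 688, 10 of 16 were below 0 in non-loaded and 6 of 16 in loaded ulnae. Of all genes tested, 49.3% were above 0 in non-loaded and 43.7% in loaded ulnae. These shares were both 50.6% without mice 691 and 699, and 47.4% and 44.0% with the covariates. Without mice 686 and 688 they were 46.2% and 46.5%. Nrros, which anchors latent TGF-beta on myeloid cells, had the lowest p-value for loading in CKO mice (-0.43 ± 0.24), for the difference between responses (-0.59 ± 0.30) and for genotype in loaded ulnae (-0.41 ± 0.21). With the muscle and marrow scores as covariates, these Nrros values were -0.03, -0.19 and -0.17. Lrrc32, the anchor on platelets and T cells, led for loading in WT mice (0.31 ± 0.21), Ltbp4, a latent TGF-beta binding protein, for the mean loading effect (0.27 ± 0.23) and the proprotein convertase Pcsk5 for genotype in non-loaded ulnae (-0.67 ± 0.28).

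Of 9 other receptors and co-receptors, 7 were above 0 for loading in CKO and 2 in WT mice, with medians of 0.06 and -0.04. With the muscle and marrow scores as covariates the counts were 3 in CKO and 6 in WT mice. The medians were then -0.02 and 0.02, beside -0.001 and 0.008 over all genes. The order of the genotypes was not tested in either fit. Acvr1, a type I receptor that activins and BMPs bind, had the lowest p-value for loading in CKO mice (0.43 ± 0.22), the difference between responses (0.45 ± 0.28), the mean loading effect (0.21 ± 0.14) and genotype in non-loaded ulnae (-0.28 ± 0.20). Eng, the endothelial co-receptor endoglin, led for loading in WT mice (0.15 ± 0.10), and Acvr1b, the type I receptor of activin, for genotype in loaded ulnae (0.26 ± 0.18).

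Among 7 SMADs and partners, 4 were above 0 for loading in CKO and 4 in WT mice, with medians of 0.08 and 0.03; with the muscle and marrow scores as covariates the counts were 3 and 5. Smad3, the transducer of TGF-beta and activin signals, had 81.8, 77.8, 93.4 and 102 CPM in the loaded and 71.4, 48.5, 70.8 and 57.0 CPM in the non-loaded ulnae of CKO mice 688, 691, 693 and 698. In WT mice its lowest, median and highest values were 55.4, 77.9 and 87.1 CPM in loaded and 49.0, 72.8 and 82.0 CPM in non-loaded ulnae. The CKO groups did not overlap, the WT groups did, and the loaded ulna was higher in 4 of 4 CKO and 6 of 7 WT mice. Of all genes tested, 0.958% had every CKO loaded value above every CKO non-loaded value, and 0.835% were higher in the loaded ulna of at least 10 of 11 mice. The Smad3 response was 0.52 ± 0.17 in CKO mice (edgeR adjusted p = 0.739) and 0.08 ± 0.13 in WT mice (edgeR adjusted p = 1.0), with a difference of 0.44 ± 0.21 (edgeR adjusted p = 0.697). Apart from fits that leave out single mice, which were not tabulated for it, only the one blocked by mouse with the muscle and marrow scores as covariates called it, for the mean loading effect (0.27 ± 0.05, edgeR adjusted p = 0.0381). Tgif1, a corepressor of SMADs, had the lowest p-value of the list for loading in WT mice (0.15 ± 0.07) and for genotype in non-loaded ulnae (-0.12 ± 0.09).

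All 13 inhibitors of the pathway had fold changes below 0 for CKO against WT in non-loaded ulnae, with a median of -0.17, against -0.003 over all genes tested, of which 49.3% were above 0. The count was the same without mice 691 and 699 and without mice 686 and 688, and was 12 of 13 with the muscle and marrow scores as covariates. In loaded ulnae 8 of 13 were below 0, with a median of -0.04, beside -0.04 over all genes. Without mice 686 and 688, 5 of 13 were below 0 in loaded ulnae, with a median of 0.06, beside -0.03 over all genes. With the covariates 9 of 13 were below 0 in loaded ulnae, and the medians were -0.11 in loaded and -0.09 in non-loaded ulnae. The summed level of 6 osteocyte markers had a median of 595 CPM in CKO non-loaded and 857 CPM in WT non-loaded ulnae, and its part in the inhibitor values was not tested. Sost, 1 of these 6 markers, had medians of 273 CPM and 391 CPM there, so it weighed heavily in the sum. For the difference between responses, which shares these non-loaded libraries, all 13 were above 0 (median 0.17), and 6 of 13 with the covariates. For loading, 11 of 13 were above 0 in CKO and 7 in WT mice; without mice 691 and 699 these counts were 11 and 1, and without mice 686 and 688 they were 13 and 3. With the muscle and marrow scores as covariates the count was 8 of 13 in both CKO and WT mice, with medians of 0.02 and 0.05; of all genes, 48.3% were above 0 in CKO and 47.7% in WT mice without covariates. Bambi, a decoy receptor without a kinase domain, had 21.9 ± 1.88 CPM in CKO non-loaded and 33.5 ± 14.0 CPM in WT non-loaded ulnae (SD, n = 4 and 7), a difference of -0.62 ± 0.26 (edgeR adjusted p = 0.976); it also led for the difference between responses (0.67 ± 0.36). Fstl3, a binder of activins, led for loading in WT mice (0.27 ± 0.18) and the mean loading effect (0.30 ± 0.15), Pmepa1, a feedback inhibitor, for loading in CKO mice (0.39 ± 0.21), and the ubiquitin ligase Smurf2 for genotype in loaded ulnae (-0.10 ± 0.07). None of these passed the test.

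Of 20 commonly used target genes, 15 were above 0 for loading in CKO and 10 in WT mice, with medians of 0.27 and 0.03, against -0.01 over all genes in both. With the muscle and marrow scores as covariates 13 were above 0 in CKO and 14 in WT mice, with medians of 0.06 and 0.16. The order of the genotypes in these medians was not tested in either fit. Between genotypes, 19 of 20 target genes were below 0 in CKO against WT non-loaded ulnae, with a median of -0.33, and 17 of 20 without mice 691 and 699; with the covariates it was 18 of 20, with a median of -0.14. In loaded ulnae 15 of 20 were below 0, with a median of -0.14, beside a median of -0.04 over all genes, of which 43.7% were above 0. The count was 9 of 20 without mice 691 and 699, and 16 of 20 with the covariates, with a median of -0.16. Without mice 686 and 688, 10 of 20 were below 0 in loaded ulnae, with a median of -0.01, and 17 of 20 in non-loaded ulnae. Sost, the osteocyte inhibitor of Wnt signalling, had the lowest p-value in non-loaded ulnae (-0.70 ± 0.25, edgeR adjusted p = 0.976) and for the difference between responses (0.77 ± 0.35), and Fn1, which encodes fibronectin, in loaded ulnae (-0.56 ± 0.25, edgeR adjusted p = 0.601). The summed level of the 6 osteocyte markers, of which Sost is 1, spanned 534 to 610 CPM in CKO non-loaded and 571 to 1495 CPM in WT non-loaded ulnae. Sost alone spanned 257 to 310 CPM and 262 to 726 CPM in these groups. The sum of 8 osteoblast markers spanned 2178 to 7411 CPM and 2928 to 21116 CPM. The part of both sums in the genotype difference was not tested.

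**Figure D5:**
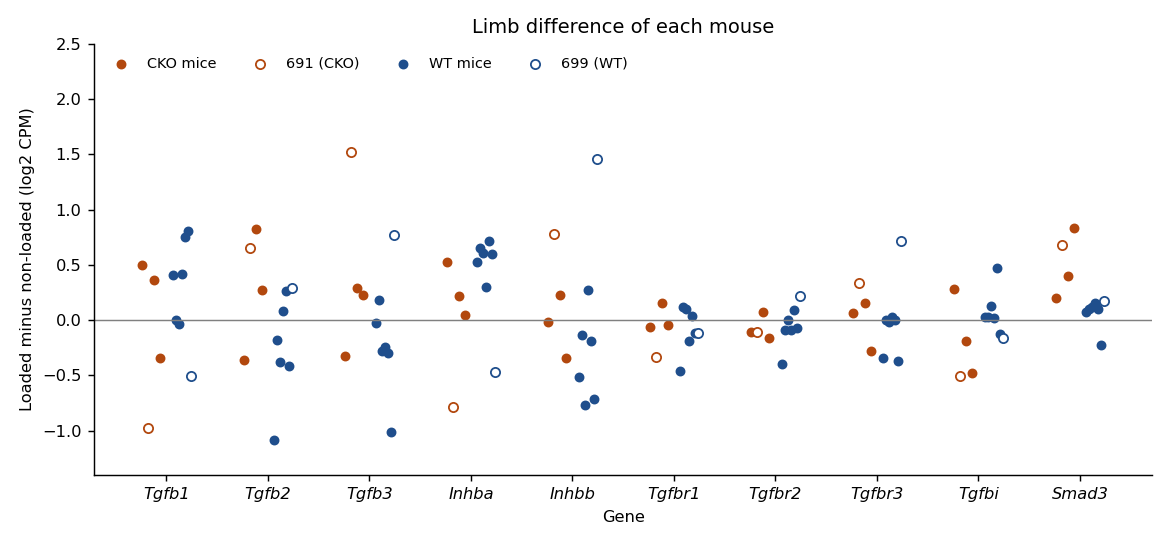
Loaded minus non-loaded log2 CPM in each of 11 mice for the 9 genes and for Smad3, CKO mice left of WT mice for each gene; open circles are mice 691 (CKO) and 699 (WT). Inhba lies above 0 in 9 of 11 mice, with both open circles below 0, and Smad3 lies above 0 in 10 of 11.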

How the data were processed

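Total RNA of 22 ulna libraries was analysed. Per the labels' protocols, bone was kept in RNAlater, milled and extracted, and the library kit kept strand. STAR, RSEM and GRCm38 are named, per the submitters' processing notes. Tool versions, the annotation release and the strand setting were not given in the sources used here. Expected counts per gene, deposited by the authors, were all whole numbers, so that rounding changed no value. CPM, levels per exon length (GENCODE M21 on GRCm38) and all tests were computed from these counts.

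Groups came from the labels, with the mouse number as the replicate. Members were taken by symbol, without a cut on their values, but members and gene lists were chosen with earlier results of these data known. edgeR 4.0.16 (R 4.3.3; filterByExpr, TMM, robust glmQLFit, glmQLFTest) was run on all 22 libraries with a mean for each of 4 groups (18 residual degrees of freedom, 18793 of 25471 genes), with Benjamini-Hochberg adjustment over the genes tested and a threshold of 0.05. The standard error is the size of the log2 fold change divided by the square root of F, and 95% intervals use the t quantile at 18 degrees of freedom. Log2 CPM used a prior count of 2. The fits were tested on simulated data. Alternatives were median-ratio scaling, no low-count filter, DESeq2 1.42.0, limma 3.58.1 voom with the mouse as a random effect, the mouse as a block, muscle and marrow scores as covariates, both together, and leaving out each mouse, mice 686 and 688, or mice 691 and 699; the last 2 combined with the block were chosen after seeing the data.

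The limbs of a number come from the same animal, which pairs the samples. Within a mouse, the 2 limbs' departures from the mean of each group had an r of -0.26 to 0.41 (median 0.19), above 0.1 in 7 of 11 mice. No libraries of a group were alike within sampling noise (lowest chi-square per gene 27.4 over 54 pairs). Mice are separate animals. The edgeR model with a mean for each group has no mouse term, so its p-values measure the spread between mice within a group. They do not measure the spread of the limb differences, which the fits with the mouse as a block use. Named were every member, the gene of each list with the lowest p in each comparison and a mean of at least 1 CPM, any called gene, and for each member the 3 most alike genes with a symbol. Smad3 is given in full because of its values. A gene that this rule names is not reported here, though list counts include it.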

Additional observations from a re-analysis of the deposited data

Results flagged for a closer look

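In the 7 WT non-loaded ulnae, mouse 699 lay far below the other mice for Tgfb3, at 26.4 CPM, and for Tgfbr3, at 74.1 CPM. The gap to the next mouse took most of the range of the group in both cases. 36 groups (9 genes in 4 groups) were examined and 2 of them stood out in this way; chance gives about 1 in 20 groups. Muscle markers took 4.39% of the counts in this library, against 8.71% to 13.2% in the other WT non-loaded ulnae. The part of this difference in the 2 values was not tested.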

How the results depend on the processing

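In 22 other settings, 0 of 1116 member values passed the threshold, and the lowest adjusted p was 0.115, for the mean loading effect of Inhba with the mouse as a block and without mice 691 and 699. Where the fold change in the model without covariates or block exceeded its standard error, its sign was compared, and otherwise its shift was set against that standard error. So compared, 1085 values kept their sign or shifted by at most 1 standard error, 26 shifted further and 5 changed sign, each of these to a value smaller than its own standard error. The difference of Tgfb1 responses between genotypes, -0.41 in the model without covariates, was 0.073 with muscle and marrow scores as covariates and 0.080 with the replicate block added. The Tgfb3 response in CKO mice, 0.32, was -0.043 and -0.020 in these 2 fits. The Inhba genotype difference in non-loaded ulnae, 0.31, lay between -0.041 and 0.65 when each mouse was left out in turn, and was lowest without mouse 691. The scores are part of these 2 fits by construction; otherwise the cause was not tested.

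With the replicate block the Inhba response in WT mice was 0.42 ± 0.16 (unadjusted p = 0.0240, edgeR adjusted p = 0.999), against 0.33 ± 0.26 without it; the block changed no call of a member. The mean loading effect called 17 genes of the whole table in the model without block, 33 with DESeq2 and 52 with block and covariates. For loading in CKO mice these counts were 3, 22 and 3, and for loading in WT mice 1, 11 and 17.

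With 4 CKO mice, 95% intervals of the responses reached as far as 1.87-fold (Tgfb3), so moderate changes of single ligands were not detectable. Counts are relative, so the CPM of a gene also moves with how much RNA other tissues contribute. Genes that share exon bases with members (Gm29491, Gm37804, Gm48008 and Gm43422) leave small uncertainties in Tgfb2, Tgfb3 and Tgfbr3.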
